A study of Bos taurus with 8 samples.

Results

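Trophectoderm cells of day 9 bovine embryos (class LB TE) were compared with trophectoderm cells of day 8 embryos (class MB TE). Cells were chosen by the class that the authors' cell table gives them, 31 LB TE cells and 37 MB TE cells, together 68 of the 286 cells with values. All came from wildtype embryos, day 9 or day 8 after fertilization, in libraries that each pooled barcoded cDNA of single cells of several ages. Cells of the same class and library were averaged where there were at least 3 of them, and the library was the replicate. LB TE had 2 averages, from replicate 3 (21 cells) and replicate 5 (9 cells), and MB TE had 3, from replicates 1 (21 cells), 2 (12 cells) and 3 (3 cells). Replicate 3 was thus the only library that carried averages of both ages. A single LB TE cell in replicate 2 and a single MB TE cell in replicate 5 stayed outside the averages and are described separately. The labels name no embryo, so how many embryos a library holds is not known. The class names are those of the cell table, with TE read as trophectoderm, ICM as inner cell mass, EPI as epiblast and PE as primitive endoderm, called hypoblast in cattle.

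Trophectoderm is the outer epithelium of the blastocyst. It pumps fluid into the cavity, and its descendants form the embryonic part of the placenta. In ruminants it does not implant soon after hatching. It multiplies and elongates inside the uterus, fed by uterine secretions that it takes up by endocytosis and transport, and it secretes interferon tau, the signal that maintains the corpus luteum, and later the pregnancy-associated glycoproteins and Kunitz domain proteins. The comparison asks which transcripts of this epithelium differed between embryos a single day apart in age.

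Both classes carried the trophectoderm markers, with sums that were high and overlapped between the classes. The 8 markers (KRT8, KRT18, CDX2, GATA3, GATA2, TFAP2A, DAB2 and PLAC8) summed to 42976 and 32344 reads per 1000000 of a cell, averaged over cells (CPM), in the LB TE averages, against 30446, 41712 and 57911 CPM in MB TE. Epiblast averages of day 9 (LB EPI) held 1465 to 2585 CPM of the same markers. Taken singly, KRT8, KRT18 and GATA3 overlapped between LB TE and MB TE. CDX2, GATA2 and DAB2 were lower in both LB TE averages than in all MB TE averages, and PLAC8 was higher. For TFAP2A the median cells stood at 21.6 and 9.13 CPM in LB TE, against 0, 0 and 6.44 CPM in MB TE. The sums were mostly KRT8 and KRT18, so their overlap does not describe the transcription factors. The 23 epiblast markers in the table summed to 764 and 898 CPM in LB TE and to 822 to 1347 CPM in MB TE, below the 5124 to 6227 CPM of LB EPI, and the 25 hypoblast markers to 2254 and 2282 CPM in LB TE and 2234 to 3282 CPM in MB TE, against 11822 to 12261 CPM in LB PE. Cumulus, blood and sperm markers stayed at or under 28.4 CPM in every trophectoderm average, and fibroblast markers between 73.3 and 156 CPM. Depth was alike over all cells of a class, with a median of 196521 reads per LB TE cell (44012 to 747345) and 198116 per MB TE cell (49665 to 499109). It differed between libraries, with medians of 138668 and 222109 reads in LB TE of replicates 3 and 5. In MB TE of replicates 1, 2 and 3 the medians were 182837, 307521.5 and 163760 reads. All 6 wildtype libraries used the same 48 cell barcodes.

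Day 9 trophectoderm held more transcript of PAGE4, of the placental protease inhibitor TKDP1, of the lipid enzyme MOGAT1 and of the ubiquitin ligase NEDD4, among others, and less of CKB, GLUD1 and PPP1R14A. Of 10766 genes tested with limma, 27 were called at an adjusted p under 0.05 (0.251%), 21 higher in LB TE (0.195%) and 6 lower (0.0557%). Log2 changes, on the scale log2(CPM + 10), ran between 1.48 and 3.19 for the rises, beside a median of 0.04 over all genes tested. At an unadjusted p under 0.05, 404 genes were higher (3.75%) and 277 lower (2.57%). In each of the 27 genes both LB TE averages lay beyond all 3 MB TE averages, on the side of the change, which held for 12.9% of all genes tested upward and 10.6% downward. The difference between the averages of replicate 3 also had the same sign in each of the 27, and lay above 0 for 57.0% of all genes tested. The 27 were called on these same averages, so both counts describe the calls and are no independent test. A gene could also pass the filter of 10 CPM in 2 averages through LB TE alone, which fixes the lack of overlap in advance. The calls rest on few libraries. Without replicate 5, which leaves 1 LB TE average, limma called 0 genes (535 at an unadjusted p under 0.05), with adjusted p values between 0.0699 and 0.486 for the 21 of these genes that still passed the filter on low values. Without replicate 3 it called 3 genes, 2 of them among the 19 of the 27 that were still tested, and without replicate 1 it called 7, 6 of them among the 27. Of the 27 calls, 6 held with the library as a fixed block, 12 with no block, 6 with the trophectoderm averages alone and 4 with a pseudocount of 1. Dropping the filter held 12 of the 27, and the mean of log values over cells held 26 among 97 calls.

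**Figure D1:**
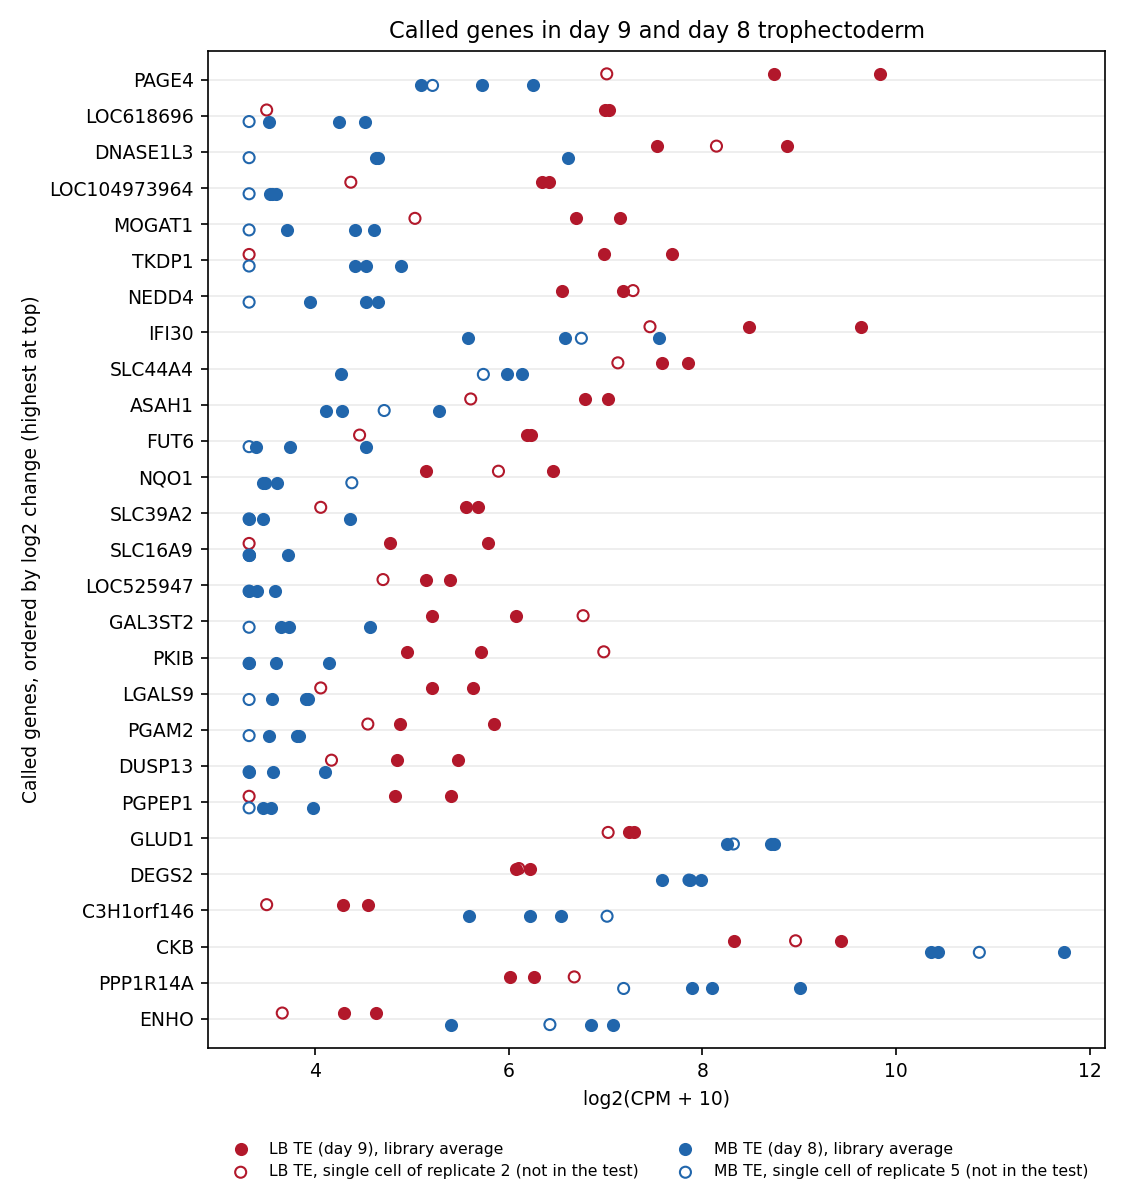
Levels of the 27 called genes on a log2(CPM + 10) axis, 1 row per gene; red marks are LB TE and blue marks MB TE, filled for library averages and open for the single cells left out of the test. Filled red and blue marks do not overlap in any row, with LB TE to the right in the upper 21 rows and to the left in the lower 6.

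The largest rise was that of PAGE4, a member of a family of small disordered proteins that in humans is expressed in placenta and prostate. It averaged 416 and 903 CPM in the LB TE libraries, against 42.9, 24.2 and 66.0 CPM in the MB TE libraries, a log2 change of 3.19 ± 0.59 (SE, limma adjusted p = 0.0318). The lower LB TE average was more than all 3 MB TE averages together. Within LB TE the gene was uneven, since median cells stood at 86.4 CPM in replicate 3 and 121.5 CPM in replicate 5 while the highest cells reached 2987 and 2993 CPM. A single cell held 34.2% of the summed level in replicate 3 and 36.8% in replicate 5. The MB TE medians were 11.1, 6.06 and 70.3 CPM, so the typical cell of both LB TE libraries lay above the typical cell of each MB TE library.

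TKDP1, a trophoblast Kunitz domain protein, is of a protease inhibitor family that ruminant trophoblast secretes. It averaged 117 and 195 CPM in LB TE, against 13.02, 19.7 and 11.4 CPM in MB TE (log2 change 2.58 ± 0.38, limma adjusted p = 0.00293). Part of this sat in few cells, for the highest cell held 45.2% and 59.1% of the sum in the LB TE libraries. Median cells were at 16.2 and 16.9 CPM in LB TE and at 0, 0 and 9.67 CPM in MB TE. The family has several close copies in cattle between which reads could be split, so the value is uncertain for the single gene.

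DNASE1L3, a secreted DNase that in humans clears DNA of dying cells, averaged 459.5 and 175 CPM in LB TE and 14.8, 15.2 and 87.9 CPM in MB TE (log2 change 2.81 ± 0.58, limma adjusted p = 0.0459). Its MB TE average of replicate 3 stood apart from the other two, yet all 3 cells behind it, at 85.5 to 90.2 CPM, lay below the median LB TE cell of that library, at 389 CPM. The long noncoding RNA LOC104973964 averaged 75.3 and 71.3 CPM in LB TE, against 1.82, 1.58 and 2.15 CPM in MB TE (log2 change 2.78 ± 0.28, limma adjusted p = 2.35e-05). It had the smallest p of all genes tested, but 62.9% of its sum in LB TE of replicate 3 came from a single cell at 994 CPM. In replicate 5 the level was spread, with a median cell at 77.0 CPM.

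MOGAT1 and a pair of genes of lysosomal enzymes were among the rises. No member of the lists of fatty acid and lipid droplet genes (24 tested) or of endocytic and lysosomal genes (31 tested) was called. Over all genes tested 0.251% were called. MOGAT1, which joins monoacylglycerol to a fatty acid on the way to stored fat, averaged 93.6 and 132 CPM in LB TE and 11.3, 14.4 and 3.11 CPM in MB TE (log2 change 2.71 ± 0.35, limma adjusted p = 0.000688). Every LB TE cell had a read of it, and median cells stood at 79.8 and 143 CPM in the LB TE libraries, against 5.21, 11.2 and 3.22 CPM in the MB TE libraries. MOGAT1 was also among the firmest calls, called in 16 of 18 alternative settings. ASAH1, the lysosomal ceramidase, averaged 101 and 120 CPM in LB TE and 7.39, 28.9 and 9.44 CPM in MB TE (log2 change 2.24 ± 0.42). IFI30, a lysosomal thiol reductase that unfolds endocytosed proteins, averaged 347 and 788 CPM in LB TE and 37.9, 178 and 85.7 CPM in MB TE (log2 change 2.29 ± 0.47). In the second MB TE library a single cell at 1075 CPM held 50.3% of the IFI30 sum.

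The transporter genes SLC44A4, SLC39A2 and SLC16A9 were called higher. None of the 18 genes tested on the list of nutrient transporters was called, where 0.251% of all genes tested were. Of those 18, 11 had a log2 change below 0, while 54.7% of all genes tested lay above 0. SLC44A4, which in humans carries thiamine pyrophosphate and choline, averaged 221.5 and 182 CPM in LB TE and 9.24, 53.3 and 60.3 CPM in MB TE (log2 change 2.26 ± 0.45, limma adjusted p = 0.0330). The zinc importer SLC39A2 averaged 37.3 and 41.4 CPM in LB TE, against 10.6, 0 and 1.07 CPM in MB TE (log2 change 1.92 ± 0.33). SLC16A9, of the monocarboxylate transporter family, averaged 45.4 and 17.3 CPM in LB TE and 0, 0 and 3.22 CPM in MB TE (log2 change 1.84 ± 0.31). The median LB TE cell had no SLC16A9 read in either library, and single cells held 61.8% and 66.0% of the sums, so this rise describes a few cells.

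The ubiquitin ligase NEDD4, which tags membrane proteins for endocytosis, averaged 83.7 and 135 CPM in LB TE and 5.49, 15.2 and 13.2 CPM in MB TE (log2 change 2.42 ± 0.40, limma adjusted p = 0.00850). Its spread over cells was the opposite of that of SLC16A9. All LB TE cells had a read, no cell held more than 22.3% of a library's sum, and medians were 90.9 and 101 CPM in LB TE against 0, 10.01 and 12.2 CPM in MB TE. FUT6, a fucosyltransferase that completes surface glycans, averaged 65.3 and 63.0 CPM in LB TE and 0.497, 3.40 and 13.2 CPM in MB TE (log2 change 2.22 ± 0.42). NQO1, a quinone reductase induced by oxidative stress, averaged 25.4 and 78.1 CPM in LB TE and 2.23, 1.24 and 1.07 CPM in MB TE (log2 change 2.12 ± 0.42).

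The other 9 rises fell outside the rule for named genes and were picked after their values were seen. They were LOC618696 (log2 change 2.82), LOC525947 (1.80), GAL3ST2 (1.70), which sulfates galactose on glycans, PKIB (1.68), an inhibitor of protein kinase A, the galectin LGALS9 (1.62), PGAM2 (1.62), a form of the glycolytic enzyme phosphoglycerate mutase, the phosphatase DUSP13 (1.52) and the peptidase PGPEP1 (1.48). LOC104973964, given above, is the ninth. LOC525947 is named INHCA in the RefSeq table of assembly ARS-UCD2.0. LOC618696 averaged 122 and 118 CPM in LB TE, against 12.9, 1.55 and 9.08 CPM in MB TE. The other 7 of these genes averaged between 18.3 and 57.6 CPM in the LB TE libraries and between 0 and 13.8 CPM in the MB TE libraries. A single cell at 260.8 CPM held 64.2% of the PGAM2 sum in LB TE of replicate 3, where the median cell was at 5.09 CPM.

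The 6 falls include a pair of enzymes of energy and amino acid metabolism. CKB, the brain-type creatine kinase that buffers ATP, averaged 310 and 677 CPM in LB TE, against 3389, 1305 and 1371 CPM in MB TE, a drop of the log2 level (-1.94 ± 0.36 SE, limma adjusted p = 0.0328). Even the highest LB TE cells, at 1273 and 1337 CPM, were below the median MB TE cell of replicates 1 and 3, at 3074 and 1379 CPM. GLUD1, the mitochondrial glutamate dehydrogenase, averaged 141 and 147 CPM in LB TE and 418, 409 and 295 CPM in MB TE, and fell by 1.26 ± 0.26 (limma adjusted p = 0.0425). The GLUD1 call was also the least stable of the falls, made in 3 of 18 alternative settings, while its sign held in all 18.

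PPP1R14A, which inhibits myosin phosphatase and so favours contraction in smooth muscle, averaged 66.8 and 54.7 CPM in LB TE and 506, 228 and 264 CPM in MB TE, and fell by 2.09 ± 0.31 (limma adjusted p = 0.00293). DEGS2, which makes phytoceramide, averaged 57.6 and 64.4 CPM in LB TE and 224, 181.5 and 243 CPM in MB TE (log2 change -1.66 ± 0.32). ENHO, which encodes the secreted peptide adropin, averaged 9.70 and 14.8 CPM in LB TE, against 105, 32.4 and 125 CPM in MB TE (log2 change -2.17 ± 0.45). C3H1orf146, named after an open reading frame, averaged 9.64 and 13.5 CPM in LB TE, against 64.6, 38.2 and 82.9 CPM in MB TE (log2 change -1.79 ± 0.36). The 4 genes showed no overlap between LB TE and MB TE averages, and the replicate 3 difference of each was between -1.84 and -2.78.

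Across all 7 classes of the study, the LB TE mean was the highest for 19 of the 21 rises, where 12.5% of all genes tested had their highest mean in LB TE. The rises and falls were called on these same LB TE averages, so the ranks describe levels and are no test. The filter asked for 10 CPM in 2 averages, which the 2 LB TE averages could meet alone. DUSP13 passed in that way, at 18.7 and 34.5 CPM in LB TE and at most 7.24 CPM in any other average. For such genes the filter fixed the top rank. NQO1 was higher in LB EPI, at 57.4 ± 45.7 CPM (SD, n = 3) beside 51.8 ± 37.2 in LB TE (n = 2), a gap inside the spread, and LGALS9 was higher in LB PE. PAGE4 stood at 659.6 ± 345 CPM in LB TE and between 0.636 and 80.8 CPM in the means of the other classes. DNASE1L3 stood at 317 ± 201 CPM in LB TE, with its next highest mean in MB TE, at 39.3 ± 42.1 CPM, and its lowest in the day 7 class EB, at 0.212 CPM. IFI30 followed the same order, at 567 ± 311 CPM in LB TE, 101 ± 71.2 in MB TE and 1.61 in EB. Of the falls, 4 of 6 had their lowest mean in LB TE, against 18.8% of all genes tested. CKB stood at 494 ± 260 CPM in LB TE and between 2022 and 4920 CPM in the other class means.

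The single cells left out of the averages took no part in the fit. The averages set against them did, and the genes were called on those averages. A comparison of a cell with an average is therefore no independent test. In replicate 2 the LB TE cell (747345 reads) lay above the MB TE average of its own library in 16 of the 21 rises, where 33.0% of all genes tested did, and below it in 6 of 6 falls (65.1% of all genes). In replicate 5 the LB TE average lay above the single MB TE cell (184253 reads) in 21 of 21 rises (63.6% of all genes) and below it in 6 of 6 falls (34.4%). That MB TE cell was at 0 in 16 of the 21 rises, where any LB TE value above 0 lies above it. Set against each other, the LB TE cell lay above the MB TE cell in 18 of 21 rises (47.9% of all genes) and below it in 6 of 6 falls (41.9%). The LB TE cell was deeper (747345 against 184253 reads) and was at 0 in 3 of the 21 rises, the MB TE cell in 16. A deeper cell more readily has a read of a low gene, and the share over all genes was not matched for level. The count of 18 is therefore no test of the rises either. Both cells lacked reads of TKDP1, SLC16A9 and PGPEP1. PAGE4 was at 119 CPM in the LB TE cell and 27.1 CPM in the MB TE cell, and CKB at 488 against 1845 CPM.

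The rises were also seen as a count of genes per cell. After every cell was thinned to 50000 reads, which left out 1 shallower cell of each class, LB TE cells had a read of a median of 14 of the 21 rises (10 to 19, 30 cells) and MB TE cells of 4 (1 to 9, 36 cells). No LB TE cell had fewer than the MB TE cell with the most. The genes were called on these same cells, so this describes their spread and is no test. Cells of other classes also differed between libraries in this count. The 3 MB TE cells of replicate 3 had 8 each, against medians of 4 in replicate 1 and 5 in replicate 2, and LB EPI cells had medians of 6 in replicate 3 and 7 in replicate 5, against 3 in replicate 2. MB ICM cells had a median of 6.5 in replicate 5 (4 cells) and of 3 in replicates 1 and 2. The single MB TE cell of replicate 5 had 3, and the single LB TE cell of replicate 2 had 13. The part of this difference between libraries in the calls was not tested.

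**Figure D2:**
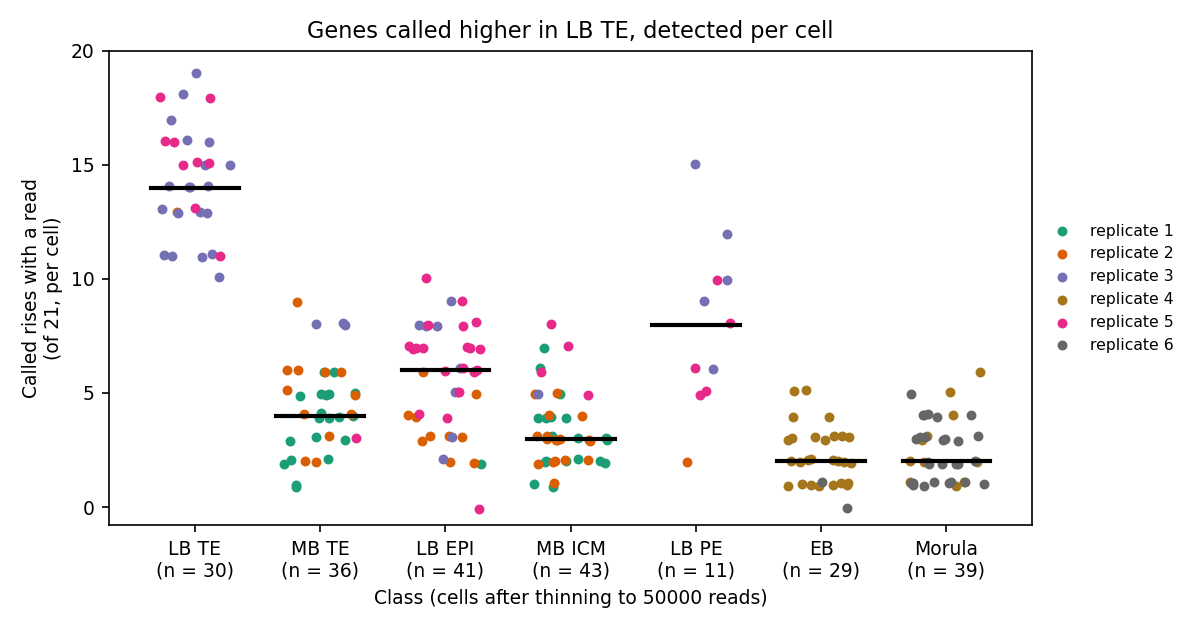
Number of the 21 called rises with at least 1 read in each cell after thinning to 50000 reads, by class, with LB TE at the left beside MB TE; points are cells coloured by library, spread sideways and slightly upward or downward to show overlaps, and black lines are class medians. LB TE cells lie between 10 and 19 and MB TE cells between 1 and 9, and cells of replicates 3 and 5 lie high within several classes.

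For single genes the shares of cells with a read, at equal depth, followed the levels. NEDD4 had a read in 90.0% of LB TE cells (27 of 30, exact 95% interval 73.5 to 97.9) and 30.6% of MB TE cells (11 of 36, 16.3 to 48.1), beside 26.8% of LB EPI cells. MOGAT1 had one in 86.7% of LB TE cells (69.3 to 96.2) and 36.1% of MB TE cells (20.8 to 53.8), beside 43.9% in LB EPI. For both genes the MB TE share lay close to that of the epiblast cells. A share at that level was read neither as expression nor as its absence. PAGE4 had a read in 93.3% of LB TE cells (77.9 to 99.2) and 50% of MB TE cells (32.9 to 67.1), and in 63.4% of LB EPI cells. TKDP1 was seen in 60.0% of LB TE cells (40.6 to 77.3), 19.4% of MB TE cells (8.19 to 36.0) and 34.1% of LB EPI cells. For PAGE4 and TKDP1 the MB TE share was below that of the epiblast cells, and it was read in neither way either. Single MB TE cells of replicate 1 still reached 201.3 CPM of PAGE4 and 261.5 CPM of TKDP1. Unthinned, the LB TE and MB TE shares were 100% and 48.6% for NEDD4, 100% and 62.2% for MOGAT1, 100% and 73.0% for PAGE4 and 71.0% and 27.0% for TKDP1. These intervals cover counting error only, and cells of 1 library are not independent samples.

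Genes that define the trophectoderm did not pass the test between the days. KRT8, the keratin of simple epithelia, averaged 26444 and 20166 CPM in LB TE and 15477, 22754 and 27017 CPM in MB TE, a log2 change of 0.16 ± 0.29 that turned to -0.03 without replicate 1. The transcription factor CDX2 averaged 44.9 and 35.3 CPM in LB TE, against 72.9, 54.4 and 62.9 CPM in MB TE (log2 change -0.48 ± 0.38), and GATA3 389 and 467 CPM in LB TE, against 475.5, 427 and 642 CPM in MB TE (-0.24 ± 0.29, turning to 0.14 without replicate 3). GATA2 had the largest difference among the trophectoderm transcription factors, at 35.7 and 3.40 CPM in LB TE and 71.2, 43.9 and 116 CPM in MB TE, with no overlap (log2 change -1.70 ± 0.42, limma adjusted p = 0.134). TFAP2C, at 130 and 128 CPM in LB TE and 294, 170.3 and 329 CPM in MB TE, had a log2 change of -0.99 ± 0.30 (limma adjusted p = 0.281). Higher in both LB TE averages than in all MB TE averages, but not called after adjustment, were KRT19 (log2 change 1.24 ± 0.38), PLAC8 (0.71 ± 0.30) and the homeobox gene DLX3 (1.03 ± 0.31). Of 27 transcription factors tested none was called, 14 had a log2 change above 0 and their median was 0.03, a sign kept in 6 of 18 alternatives, with values down to -0.49 under the 50 CPM filter. Over all genes tested 0.251% were called and 54.7% had a log2 change above 0. Within replicate 3 the median was -0.39.

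No epiblast or hypoblast marker was called. POU5F1, the pluripotency factor that bovine trophectoderm retains for some days, averaged 26.3 and 45.6 CPM in LB TE and 139.7, 106 and 96.0 CPM in MB TE, with no overlap (log2 change -1.45 ± 0.34, limma adjusted p = 0.0932). NANOG averaged 22.1 and 82.9 CPM in LB TE and 11.8, 19.6 and 13.5 CPM in MB TE (1.02 ± 0.38, limma adjusted p = 0.533). The higher LB TE value of NANOG came from replicate 5. GATA6, an early hypoblast factor, stood at 125 ± 7.14 CPM in LB TE and 252 ± 91.6 CPM in MB TE, a level close to the 243 ± 87.2 CPM of MB ICM, with a log2 change of -0.86 ± 0.37. DPPA3, an oocyte-derived factor, had a log2 change of -1.29 ± 0.40, and neither was called. Of 20 epiblast markers tested 10 had a log2 change above 0, and of 22 hypoblast markers 12, beside 54.7% of all genes tested.

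On the list of ruminant trophoblast secreted products TKDP1 alone was called. Of 10 tested in that list 9 had a log2 change above 0 and the median was 0.93, beside 54.7% of all genes and a median of 0.04. In 2 of the 10 both LB TE averages lay above all MB TE averages, and in 1 both lay below. IFNT3, an interferon tau gene, averaged 556 and 247 CPM in LB TE and 34.3, 402 and 64.9 CPM in MB TE (log2 change 1.88 ± 0.65, limma adjusted p = 0.452). The groups overlapped, since the MB TE average of replicate 2 lay above the LB TE average of replicate 5. A single cell held 71.9% of the IFNT3 sum in LB TE of replicate 3 (8391 CPM) and 79.2% in replicate 5 (1758 CPM), while the highest cell of MB TE in replicate 1 held 27.7% and in replicate 2 30%. The pregnancy-associated glycoprotein PAG2 had the same shape, at 694 and 203 CPM in LB TE and 116, 300.3 and 180 CPM in MB TE, with 83.9% and 83.2% of the LB TE sums in single cells. Its log2 change of 1.12 ± 0.46 (limma adjusted p = 0.657) turned to -0.77 with the mean of log values over cells, and its median cell was at 52.2 and 42.1 CPM in LB TE, against 26.5, 128.5 and 193 CPM in MB TE. PAG11 (log2 change 1.17) and SSLP1 (1.31) were not called either. Copies of the interferon tau and PAG genes are nearly identical, so reads could be split between them.

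Genes of prostaglandin and steroid synthesis, products that elongating ruminant embryos release, had higher averages on day 9 in some members. PTGS2, the inducible prostaglandin synthase, averaged 1349 and 1913 CPM in LB TE and 563, 1018 and 654 CPM in MB TE, with no overlap (log2 change 0.96 ± 0.44, limma adjusted p = 0.761). PLA2G4A, which frees arachidonic acid for it, averaged 31.5 and 37.7 CPM in LB TE and 8.62, 26.6 and 7.41 CPM in MB TE (0.98 ± 0.33). CYP11A1, which cuts the cholesterol side chain as the first step to steroids, averaged 278 and 150.4 CPM in LB TE and 10.2, 109 and 35.8 CPM in MB TE, again with no overlap (2.14 ± 0.62, limma adjusted p = 0.276). Its lowest LB TE cells, at 44.7 and 58.5 CPM, were above the median MB TE cells of replicates 1 and 3. HSD3B1, which makes progesterone from pregnenolone, averaged 210.0 and 123.9 CPM in LB TE and 72.7, 124.4 and 18.2 CPM in MB TE (1.501 ± 0.498, limma adjusted p = 0.405). Of 11 prostaglandin genes 8 and of 14 steroid genes 6 had a log2 change above 0, beside 54.7% of all genes tested, and none was called.

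**Figure D3:**
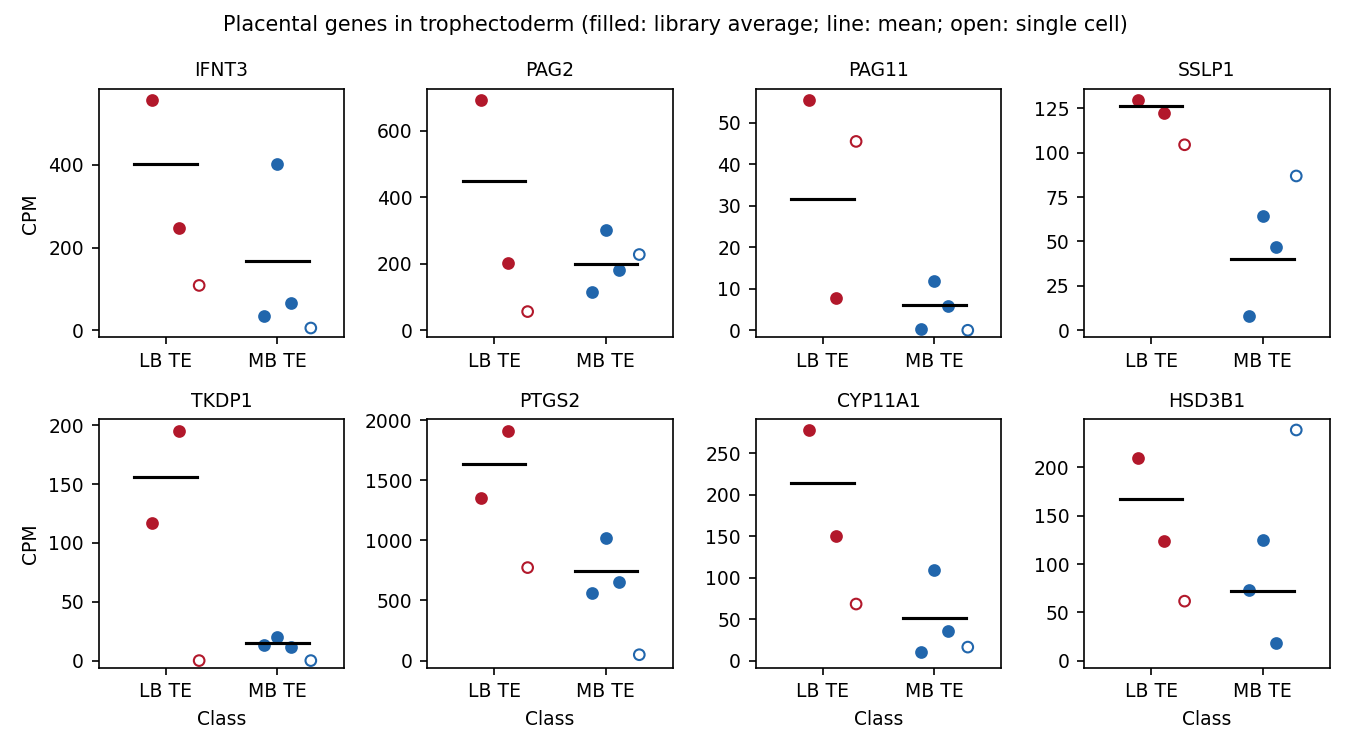
Levels in CPM of 8 placental genes in LB TE and MB TE; filled points are library averages, black lines their means and open points the single cells outside the averages. TKDP1 is the 1 gene of the 8 that passed the test, and the LB TE averages of IFNT3 and PAG2 lie far apart from each other.

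None of the cytoskeletal genes was called, although most had lower averages on day 9. Of 28 actin and contractility genes tested 20 had a log2 change below 0 and the median was -0.35, and 12 had both LB TE averages below all MB TE averages, beside 10.6% of all genes tested. Of all genes tested 54.7% had a log2 change above 0. MYL6, the myosin essential light chain, was nearly constant within each class, at 2056 and 2108 CPM in LB TE and 3637, 3616 and 3800 CPM in MB TE (log2 change -0.84 ± 0.19, limma adjusted p = 0.0713). MYL9, a regulatory light chain, averaged 48.0 and 38.6 CPM in LB TE and 159.5, 186 and 93.7 CPM in MB TE (-1.38 ± 0.35). The actin cross-linker ACTN1 (-1.10 ± 0.30) and the nonmuscle myosin heavy chain MYH9 (-0.995 ± 0.332) did not overlap between the classes either. PPP1R14A, called lower above, inhibits myosin phosphatase and was not a member of the list.

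The calcium-binding S100 proteins and annexins had 12 of 16 members above 0 and a median of 0.33, beside 54.7% above 0 among all genes tested. S100A11 averaged 604 and 220.1 CPM in LB TE and 54.7, 91.6 and 32.3 CPM in MB TE (log2 change 2.67 ± 0.58, limma adjusted p = 0.0713), and S100A2 304.5 and 534 CPM in LB TE and 28.8, 143 and 136 CPM in MB TE (2.07 ± 0.55, limma adjusted p = 0.199). The classes did not overlap for either gene, and neither was called after adjustment. Among endocytic and lysosomal genes 24 of 31 lay above 0, with a median of 0.29 and no call. Progranulin, GRN, averaged 94.7 and 91.4 CPM in LB TE and 35.0, 40.1 and 23.2 CPM in MB TE (1.49 ± 0.39), and the cathepsin CTSZ 544 and 579 CPM in LB TE and 120.4, 157 and 316 CPM in MB TE (1.34 ± 0.38). IFI30 and ASAH1, called above, encode lysosomal enzymes and were not members of that list.

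Among genes of growth and metabolism no member of a list was called except NQO1 in the stress list (1 of 25), where 0.251% of all genes tested were called. Cholesterol genes lay above 0 in 18 of 22 (median 0.37, turning to -0.10 without replicate 3), yet in 0 of 22 did both LB TE averages lie above all MB TE averages, and 0 had an unadjusted p under 0.05 in limma. Log2 changes were above 0 for 13 of 18 glycolytic genes (median 0.42) and 31 of 36 ribosomal protein genes (0.20), and for 6 of 31 oxidative phosphorylation genes (-0.24) and 5 of 24 mitotic genes (-0.31). Over all genes tested 54.7% had a log2 change above 0. Both LB TE averages lay above all MB TE averages for 9 glycolytic and 13 ribosomal protein genes, and below them for 8 oxidative phosphorylation and 6 mitotic genes. The shares over all genes tested were 12.9% above and 10.6% below. The glycolytic enzyme ENO1 averaged 2890 and 2935 CPM in LB TE and 534, 1970 and 1261 CPM in MB TE (log2 change 1.25 ± 0.48), and the lipid desaturase SCD 796 and 343 CPM in LB TE and 218, 351 and 253 CPM in MB TE (1.22 ± 0.48). The amino acid transporter SLC7A5 averaged 46.7 and 35.9 CPM in LB TE and 286, 84.8 and 144 CPM in MB TE (-1.70 ± 0.42, limma adjusted p = 0.134). The mitotic kinase AURKA, at 99.8 and 201.5 CPM in LB TE and 256, 246 and 286.5 CPM in MB TE, was lower in both LB TE averages (-0.88 ± 0.43). In replicate 3 alone 2 of 24 mitotic genes lay above 0. The other lists, for keratins, junctions, polarity, nutrient transport, fatty acids, matrix, ion transport, replication, cell cycle arrest, interferon response, chromatin, imprinting, signalling and oocyte transcripts, had no called member and medians between -0.13 and 0.22.

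**Figure D4:**
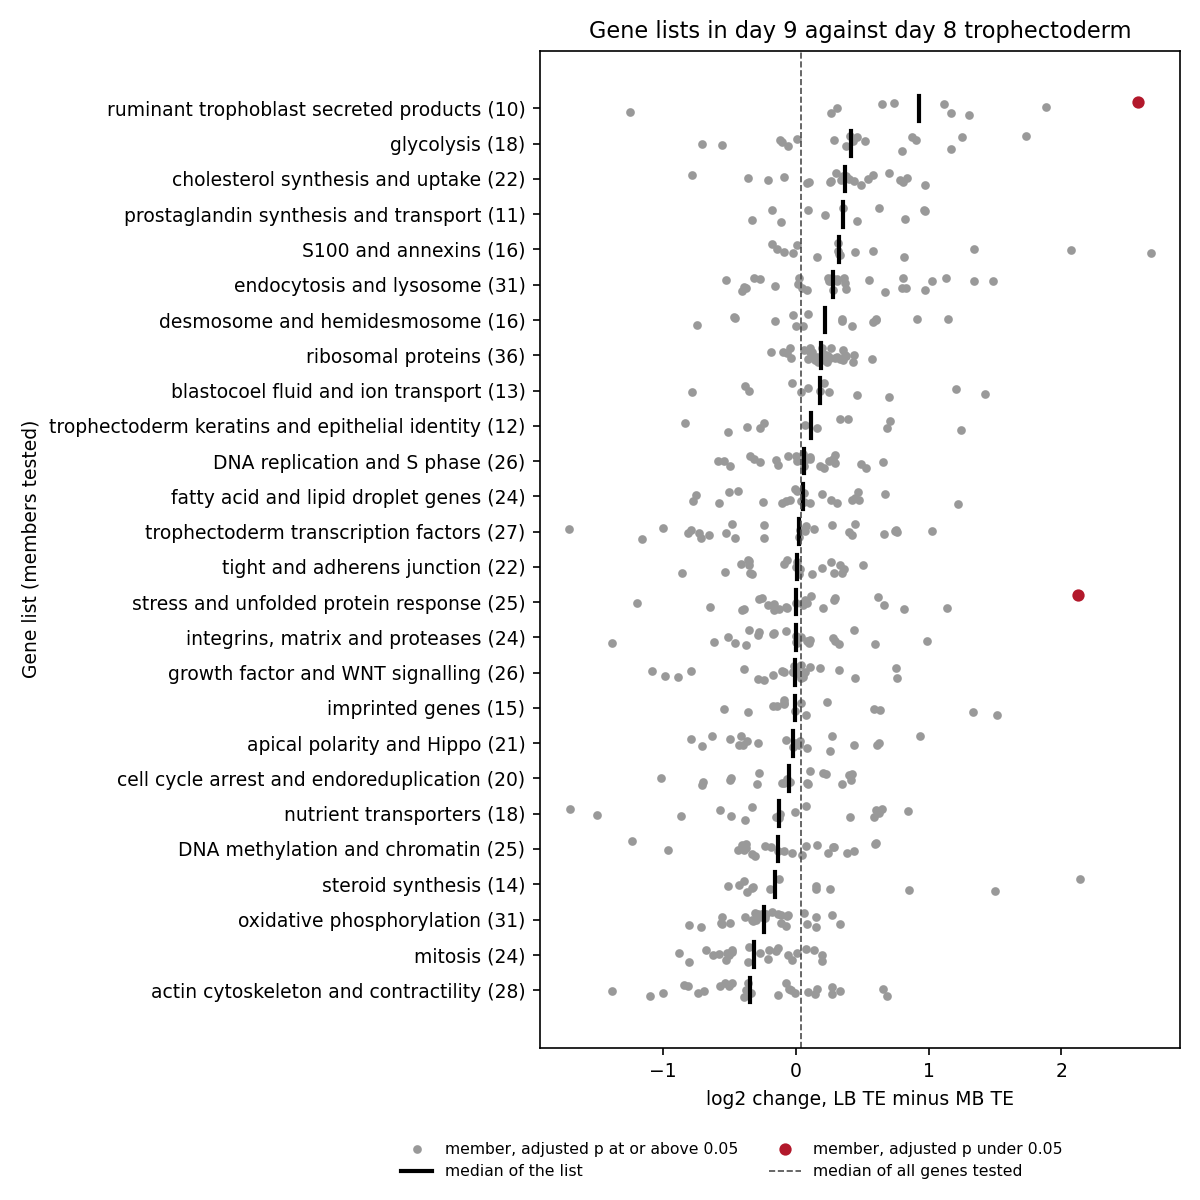
Log2 change of LB TE minus MB TE for each tested member of the 26 pathway lists (cell type marker lists left out) with at least 10 tested members, ordered by list median; grey points are members that were not called, red points the 2 called members (TKDP1 and NQO1), black bars list medians and the dashed line the median of all genes tested. The secreted products have the highest median, 0.93, and the actin and contractility genes the lowest, -0.35.

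The change in trophectoderm was set against the change between inner cells, LB EPI minus MB ICM, in the same fit. For the inner cells 671 of 10766 genes (6.23%) were called, and the difference between the changes for 63 (0.585%), 34 with the trophectoderm change above (0.316%) and 29 with it below (0.269%). Of the 21 trophectoderm rises 7 were among the 63, MOGAT1 (difference 2.66 ± 0.46, limma adjusted p = 0.0102), NEDD4 (2.76), ASAH1 (2.43), SLC39A2 (1.92), PKIB (2.16), LOC618696 (3.03) and LOC104973964 (2.62). For these genes the inner cells had log2 changes between -0.48 and 0.17. PAGE4 differed by 3.05 ± 0.77 (limma adjusted p = 0.0894) and TKDP1 by 2.13 ± 0.50 (0.0549), so neither was shown to change more in trophectoderm than in inner cells. The comparison holds class as well as age, because LB EPI cells are epiblast and MB ICM cells are still unsplit by the cell table.

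GLUD1 moved in opposite directions. It fell by 1.26 in trophectoderm and was higher by 1.51 ± 0.30 in the inner cells (limma adjusted p = 0.000452), a difference of -2.77 ± 0.34 (0.000820). In LB EPI it stood at 1002 ± 205 CPM (n = 3) against 352 ± 62.9 CPM in MB ICM (n = 3), while the 2 trophectoderm classes stood at 144 ± 4.22 CPM in LB TE (n = 2) and 374 ± 68.7 CPM in MB TE (n = 3). PPP1R14A fell alike in both, by 2.09 in trophectoderm and by 2.04 in inner cells, with a difference of -0.04 ± 0.41. NQO1 rose alike, by 2.12 in trophectoderm and 2.01 in inner cells (difference 0.12 ± 0.55). With PPP1R14A, NQO1 and GLUD1, 3 of the 27 genes were called in the inner cells too.

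The other 55 called differences were in genes not called in trophectoderm, and 51 of them were called in the inner cells. LRRC3 (difference -3.92), ERAS (-3.79) and AGPAT5 (-2.46) had log2 changes of 4.21, 3.42 and 1.67 in the inner cells and of 0.29, -0.37 and -0.79 in trophectoderm. MPZL2 (2.95), FOLR1 (2.86), SORD (2.20), CD38 (3.39) and SLC6A20 (3.31) were lower in LB EPI than in MB ICM by 2.22 to 3.19, with trophectoderm changes between -0.24 and 0.93. LRRC3 and ERAS are on the epiblast marker list, and MPZL2 and FOLR1 on the hypoblast list. FOLR1, the folate receptor, averaged 844 and 1027 CPM in LB TE and 1078, 918 and 797.5 CPM in MB TE, a log2 change of -0.03 ± 0.32.

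**Figure D5:**
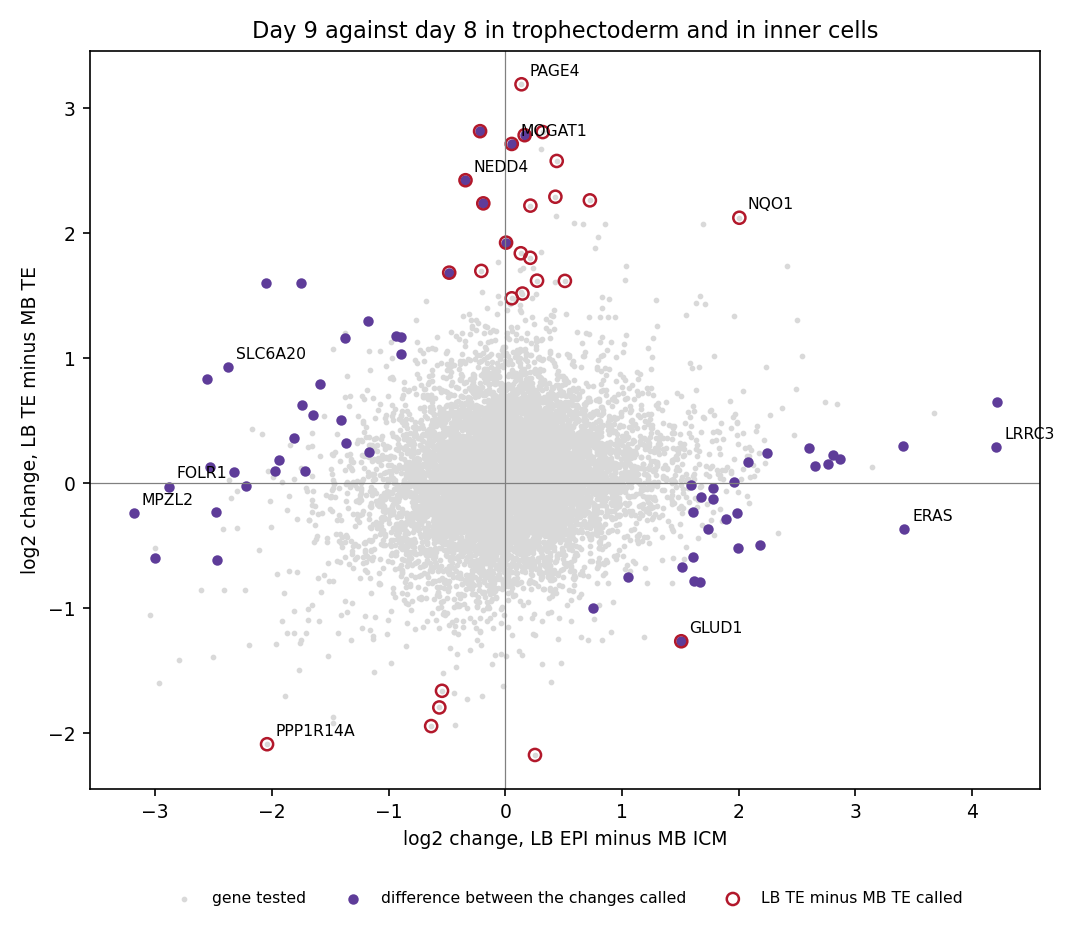
Log2 change of LB TE minus MB TE (vertical) against that of LB EPI minus MB ICM (horizontal) for the 10766 genes tested; red rings mark the 27 genes called in trophectoderm and purple points the 63 genes whose changes differed. Most red rings lie near 0 on the horizontal axis, NQO1 and PPP1R14A moved the same way in both, and GLUD1 lies low on the vertical and high on the horizontal axis.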

How the data were processed

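Polyadenylated RNA of single cells was reverse transcribed, amplified with a barcode per cell and pooled into libraries, per the labels' protocols. Per the submitters' processing notes, the authors used HISAT2, featureCounts, Trim Galore and Seurat (no versions) and the build ARS-UCD1.2. The sources used here do not say how classes were assigned, or whether strand or molecular identifiers were used, so genes that overlap on opposite strands cannot be told apart. The authors deposited natural log values, ln(1 + reads per 10000), of 18825 genes in 286 cells. With the log reversed, 100% of values were whole multiples of a cell's step (tolerance 0.1 reads), which gave 16546762 reads in the 68 trophectoderm cells. The 22 rows named as dates were left out. Libraries with base editor RNA were not used.

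Linear values were scaled to CPM and averaged per library and class with at least 3 cells. The 16 averages of all 7 classes were fitted as log2(CPM + 10), which understates changes of low genes, with limma 3.58.1 (trend, robust; statmod 1.5.0, data.table (1.17.8), R 4.3.3), library as a random block (consensus correlation 0.20), for genes reaching 10 CPM in 2 averages. P-values were Benjamini-Hochberg adjusted and called under 0.05. Nothing ties a library to an embryo, so p-values do not measure spread among embryos. They measure spread among library averages within the 7 classes, not weighted by cells. That spread includes the sampling of few cells, and part of it can be technical. Python 3.11.15, pandas 2.3.3 and numpy 2.4.6 were also used.

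The code was tested on simulated data. The classes compared, the 34 gene lists (787 symbols, 609 tested) and the rule for named genes were chosen with earlier results of these data known. The rule took at most 12 rises and 12 falls with the largest log2 change among called genes with a symbol whose averages do not overlap and whose replicate 3 difference has the same sign, up to 4 members per list with the smallest adjusted p, a fixed set of lineage genes, and up to 10 genes with the smallest adjusted p in the difference from inner cells; some of these are printed. RefSeq ARS-UCD2.0 was used for names of the 27 called genes only.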

Additional observations from a re-analysis of the deposited data

Results flagged for a closer look

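The change between days 9 and 8 differed between trophectoderm and inner cells in 63 genes by the limma contrast of the changes, (LB TE minus MB TE) minus (LB EPI minus MB ICM). Among the genes called in trophectoderm itself, the log2 difference was -2.77 for GLUD1, 3.03 for LOC618696, 2.76 for NEDD4, 2.66 for MOGAT1, 2.62 for LOC104973964, 2.43 for ASAH1, 2.16 for PKIB and 1.92 for SLC39A2. Among the genes with the smallest adjusted p in that contrast it was -3.92 for LRRC3, -3.79 for ERAS, 3.39 for CD38, 3.31 for SLC6A20, 2.95 for MPZL2, 2.86 for FOLR1, -2.46 for AGPAT5 and 2.20 for SORD. All 16 kept their sign in every alternative that could be computed for them. Groups of 2 and 3 libraries are too small for a check of single outlying samples.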

How the results depend on the processing

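The 27 genes kept their direction in every one of the 18 alternatives that tested them, and 15 of them were called in at least 9. The count of calls was 4 with a pseudocount of 1, 45 with 50, 16 with a 50 CPM filter, 15 with at least 5 cells per average, 97 with the mean of log2 values, 64 with limma-voom on recovered reads, 69 with averages weighted by cells and 6 with LB TE and MB TE averages only, fitted without the library block. It was 12 with no replicate block and 6 with the replicate block as a fixed term, and leaving out 1 library gave 0 to 28. The remaining settings gave 18 to 27, of which the 26 without the filter held 12 of the 27 genes. For the difference from inner cells, 63 became 11 (pseudocount 1), 99 (pseudocount 50), 10 (no filter), 196 (mean of log2), 158 (voom), 15 (at least 5 cells), 249 (weighted), 13 (no replicate block), 10 (averages of 1 or more cells, a setting chosen after the data were seen) and 8 to 18 without 1 library. The 2 called list members became 1 (pseudocount 1), 5 (pseudocount 50), 10 (mean of log2), 11 (voom), 13 (weighted), 1 (trophectoderm averages only), 1 (no replicate block), 0 (fixed replicate block), 0 (averages of 1 or more cells) and 0 to 4 without 1 library. The cause of these shifts was not tested. Full depth moved the shares of cells to 100% and 73.0% for PAGE4, 100% and 62.2% for MOGAT1 and 100% and 48.6% for NEDD4, in LB TE and MB TE. KRT8 reversed to -0.028 without replicate 1 (range -0.028 to 0.27 without 1 library) and to -0.0905 with averages of 1 or more cells, GATA3 to 0.14 without replicate 3 (range -0.41 to 0.14), and PAG2 to -0.77 with the mean of log2 values. The classes share only replicate 3, so age and library are otherwise tied, and 2 against 3 averages limit every call. The MB TE average of replicate 3 rests on 3 cells.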
